A study of Mus musculus with 14 samples.

Results

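Integrins and laminins were examined in testis RNA of Glis3KO2 and WT mice. The members were all gene names on the array that begin with Itga, Itgb, Lama, Lamb or Lamc followed by a chain number or letter, each represented by its brightest probe, meaning the probe with the highest mean of the 4 group means. The rule found 43 gene names of 27962, which were covered by 91 probes of 41174 and by 109 spots of 43379. By protein they are 11 laminin chains, 26 integrin chains and 6 genes whose names carry the prefix although their products are not integrin chains. The study placed 1 array of Cy3-labelled total RNA per sample. The groups were 4 Glis3KO2 and 4 WT testes at 1 week and 3 Glis3KO2 and 3 WT testes at 4 weeks of age, on the C57BL/6 strain, with no treatment. The older age follows the sample labels, since the study's design text gives it as a week younger. Glis3KO2 is labelled only as a genotype, and the deleted stretch is not given in the sources used here. The labels do not say that each array holds a separate animal, so p-values measure the spread between these samples only.

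Laminins are secreted trimers of 1 alpha, 1 beta and 1 gamma chain (Lama, Lamb and Lamc genes) that build the basement membrane. In the testis such a membrane surrounds each seminiferous tubule, and Sertoli cells, spermatogonia and peritubular myoid cells rest on it. Integrins are cell surface receptors of 1 alpha and 1 beta chain that bind laminins, collagens or proteins with the RGD motif, such as fibronectin and vitronectin, or, on leukocytes, other cells. The alpha chain largely sets the ligand, and the Itgb1 product, beta1, pairs with most of the laminin-binding and collagen-binding alpha chains. Glis3 encodes a Krüppel-like zinc finger transcription factor.

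Levels are given as log2 of the processed intensity minus the log2 of the array's 75th percentile, so 0 is the brightness of the 75th percentile and each unit is a doubling. Since brightness also depends on the probe, levels of different probes are not compared. A gene was called when its adjusted p from limma, Benjamini-Hochberg over all genes tested, was under 0.05. Of all non-control spots, 74.3% to 86.6% were well above background per array, which is what limits low values here. At 1 week the share was 76.7% to 86.6% on WT and 74.3% to 78.5% on Glis3KO2 arrays. At 4 weeks it was 75.3% to 76.3% on WT and 75.9% to 78.6% on Glis3KO2 arrays. Glis3 was well above background on 0 of 4 Glis3KO2 and 4 of 4 WT arrays at 1 week (at least 4.25-fold lower in Glis3KO2, measured against the background level, limma adjusted p = 0.00581), and on 0 of 3 and 0 of 3 arrays at 4 weeks, where it checks nothing. The 1-week arrays lay on slides 1 to 3 and the 4-week arrays on slides 4 and 5. Slide 3 held only Glis3KO2 replicate 4, scanned on another day than the other 1-week arrays.

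At 4 weeks most members were higher in Glis3KO2 testes, and at 1 week few differed. At 4 weeks 41 members passed the filter on low signal, of which 25 were higher, 6 were lower and 10 were not called (75.6% called, against 69.2% of all genes tested). The higher calls took 61.0% of the members, against 35.1% of all genes, and the lower calls 14.6%, against 34.1%. Their median log2 difference was 0.88, or 0.76 with Itgb1bp2 at the bound set by its dim WT arrays, against 0.03 over all genes. At 1 week 42 members passed, of which 3 were higher and 1 was lower (9.52% called, against 10.0% of all genes), a share near the background. The higher calls at 1 week were 7.14% of the members, against 3.90% of all genes, and the lower calls 2.38%, against 6.14%. Itgb6 passed the filter in no comparison and Itgb2l did not pass at 4 weeks.

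**Figure D1:**
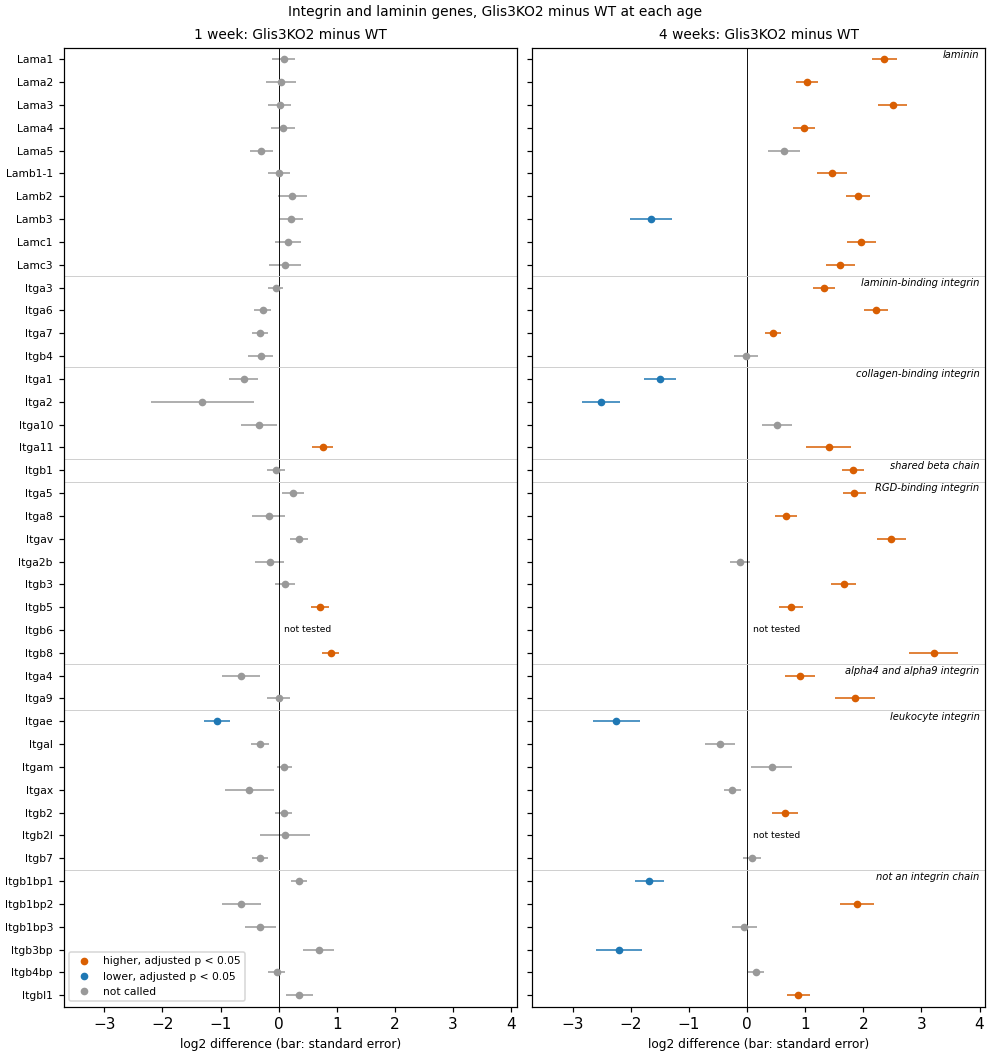
Log2 difference of Glis3KO2 minus WT for 42 members at 1 week (left, 4 arrays per group) and 4 weeks (right, 3 arrays per group), with the standard error as a bar, ordered by role. At 1 week 4 genes carry a colour; at 4 weeks 24 lie to the right of 0 as higher calls and 6 to the left as lower calls. The 4-week point of Itgb1bp2 is set against WT arrays not above background.

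Most laminin genes were higher at 4 weeks. Of 11 laminin chains, 9 were higher in Glis3KO2 testes, 1 (Lamb3) was lower and 1 (Lama5) was not called, with a median log2 difference of 1.60. At 1 week limma called 0 of the 11, and 0 had an unadjusted p under 0.05. Their differences lay between -0.30 for Lama5 and 0.23 for Lamb2, with a median of 0.07. Without Glis3KO2 replicate 3 the 1-week difference of Lamc3 was 0.41 and was called (limma adjusted p = 0.0464), as 1 of 22 alternatives. In WT testes all 11 were called between the ages, 10 lower and 1 (Lamb3) higher at 4 weeks, with a median of -2.88. That age comparison and the 4-week genotype comparison share the 4-week WT arrays, so the 2 sets of values are set side by side and not counted together. The brightest probes of 3 laminin genes are printed below because each stands for a different outcome: Lama1 with a large rise, Lamb1-1 with a smaller one, and Lamb3 as the chain that fell. Each is 60 bases long and covers a longer genomic span, as a probe across an exon junction does. The coordinates are on build mm7, per the file headers, and no base is in capitals.
Lama1, chr17:66089045-66090007, plus strand: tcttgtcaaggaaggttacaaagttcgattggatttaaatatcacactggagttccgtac
Lamb1-1, chr12:29168364-29169711, plus strand: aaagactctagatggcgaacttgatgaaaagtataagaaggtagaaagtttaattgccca
Lamb3, chr1:192893546-192896077, plus strand: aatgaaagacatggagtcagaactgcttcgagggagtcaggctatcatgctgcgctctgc

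Among the alpha chains, Lama1, a chain of embryonic and tubule basement membranes, had levels of 0.27, 0.26 and -0.39 in 4-week Glis3KO2 testes, against -2.32, -2.40 and -2.22 in WT testes. The groups did not overlap, and the difference of 2.36 ± 0.22 (SE) corresponds to 5.13-fold (limma adjusted p = 0.000558). A second Lama1 probe gave 2.44. That probe holds a stretch that resembles the telomeric repeat CCCTAA, and the part of this match in its value was not tested. Lama3, known from epithelial basement membranes, had levels of -2.29, -1.53 and -2.29 in Glis3KO2 testes, against -4.35, -4.75 and -4.51 in WT testes. All Glis3KO2 arrays were above all WT arrays (2.50 ± 0.25 SE, 5.67-fold, adjusted p = 0.000594). Its second probe, also above background on all 6 arrays, gave -0.09, so the rise was seen with 1 of 2 probes. Lama2, a chain of muscle basement membranes, rose by 1.03 ± 0.18 (adjusted p = 0.00258), and Lama4, a chain of vessels, by 0.98 ± 0.19 (adjusted p = 0.00334). Lama5, a broadly expressed epithelial and vascular chain, had levels of -0.61, -0.94 and -1.66 in Glis3KO2 testes, against -1.64, -1.82 and -1.67 in WT testes. The groups overlapped through Glis3KO2 replicate 3 (0.64 ± 0.28, adjusted p = 0.0753), and without that replicate the difference was 0.94 and the gene was called.

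Of the beta chains, Lamb2, the beta chain of synapses and kidney filters, had levels of 3.66, 3.81 and 3.41 in 4-week Glis3KO2 testes, against 1.93, 1.37 and 1.86 in WT testes (1.90 ± 0.21 SE, 3.74-fold, limma adjusted p = 0.000672). These Glis3KO2 values were also above the 2.42, 2.73, 2.88 and 3.00 of the 1-week WT testes, which lay on other slides. Lamb1-1, the file's name for Lamb1, the beta chain of many early laminins, rose by 1.46 ± 0.26 (adjusted p = 0.0025). Lamb3, the beta chain of the laminin that anchors skin epithelium, went the other way, with levels of -4.33, -4.11 and -2.93 in Glis3KO2 testes, against -2.17, -2.02 and -2.23 in WT testes. The groups were separate, and it fell by 1.65 ± 0.36 on the log2 scale (adjusted p = 0.00567). In 1-week WT testes Lamb3 had levels of -5.65, -5.13, -4.67 and -5.08, so that 4-week WT was higher by 2.99 ± 0.22 (adjusted p = 1.17e-05). The 4-week Glis3KO2 arrays lay between these sets.

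Of the gamma chains, Lamc1, the gamma chain of most laminins, had levels of 1.66, 1.81 and 1.35 in 4-week Glis3KO2 testes, against -0.03, -0.84 and -0.21 in WT testes, without overlap (1.97 ± 0.25 SE, 3.91-fold, limma adjusted p = 0.00094). Lamc3 rose by 1.60 ± 0.25 (adjusted p = 0.00163), and its other probes gave 0.86 and 1.65.

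**Figure D2:**
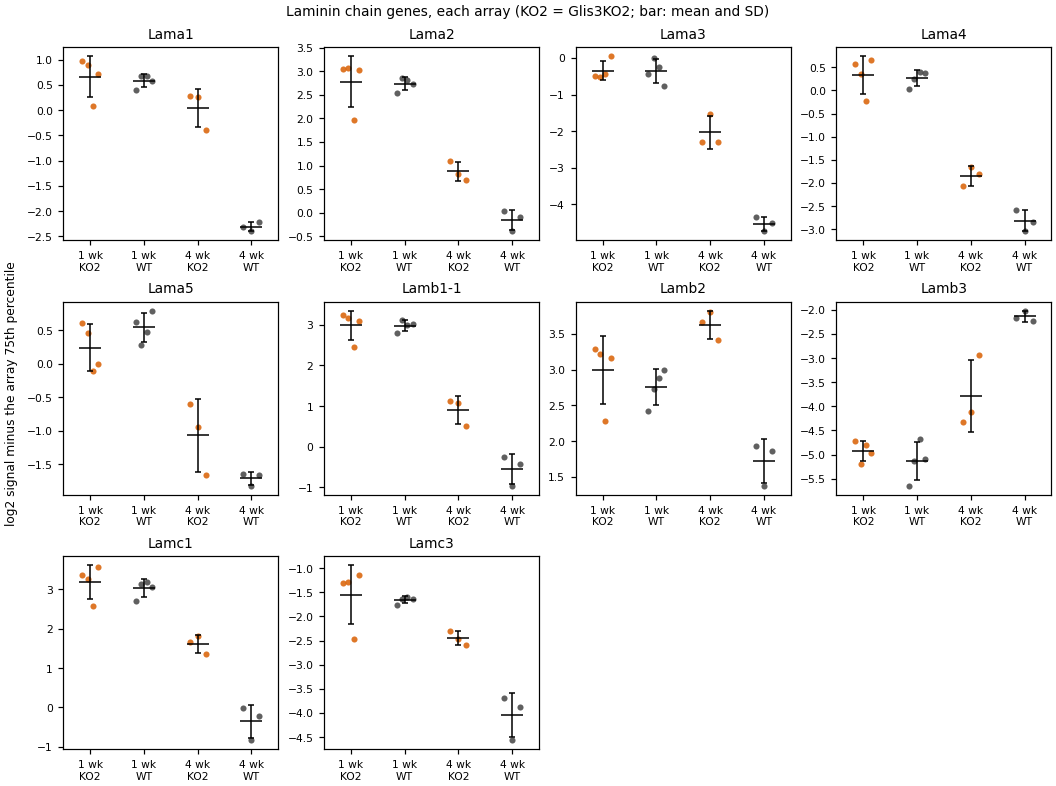
Level of 10 laminin chains on every array, as log2 signal minus the array's 75th percentile, with the mean and SD of each group; panels have their own axes. At 1 week the Glis3KO2 and WT ranges overlap for the 10 genes. For Lama2, Lamb2, Lamc1 and Lamc3 they do so only through Glis3KO2 replicate 3, which lies below the WT points while the other Glis3KO2 points lie above them. At 4 weeks the Glis3KO2 points lie above the WT points except for Lamb3, where they lie below, and Lama5, where 1 array overlaps.

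The laminin-binding integrin chains moved mostly with the laminins. Of Itga3, Itga6, Itga7 and Itgb4, 3 were higher at 4 weeks in Glis3KO2 testes and Itgb4 was not called (-0.02 ± 0.20, limma adjusted p = 0.932). Itga6, a laminin receptor chain used to enrich spermatogonia, had levels of 1.91, 2.0 and 1.41 in Glis3KO2 testes, against -0.26, -0.62 and -0.44 in WT testes (2.21 ± 0.21 SE, 4.63-fold, adjusted p = 0.000563). The groups were separate, and the other Itga6 probes gave 2.38 and 2.58. Itga3, a laminin receptor chain of epithelia, rose by 1.32 ± 0.19 (adjusted p = 0.00138). Itga7, known from muscle, rose by only 0.44 ± 0.14 (adjusted p = 0.0253), a call that was lost in 7 of 18 alternative settings. At 1 week the 4 genes lay between -0.32 and -0.05 on their brightest probes and limma called none of them, with 1 (Itga7) at an unadjusted p under 0.05. The other Itga6 probes, above background on 4 of 4 arrays in each 1-week group, gave -0.48 and -1.18. On each of them the Glis3KO2 arrays were all below the WT arrays.

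Itgb1, the beta chain these receptors share with the collagen receptors, had levels of 0.59, 0.68 and 0.22 in 4-week Glis3KO2 testes, against -1.11, -1.5 and -1.36 in WT testes. The groups did not overlap, with a difference of 1.82 ± 0.19 (3.53-fold, limma adjusted p = 0.000632), and a second probe gave 2.09. A further probe was well above background on 2 of 3 arrays in each group and gave 0.04. At 1 week the difference was -0.05 ± 0.16 (adjusted p = 0.837).

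The collagen-binding alpha chains were split. Itga11, a fibroblast collagen receptor chain, was higher at both ages: its levels at 4 weeks were 1.89, 1.76 and 0.42 in Glis3KO2 testes, against -0.13, -0.05 and 0.05 in WT testes (1.40 ± 0.39 SE, limma adjusted p = 0.0154). Glis3KO2 replicate 3 was the lowest of its group but above every WT array, and without Glis3KO2 replicate 2 the call was lost (1.20, adjusted p = 0.061, the highest of 18 alternatives). Itga2, a collagen receptor chain of platelets and epithelia, had levels of -6.12, -5.99 and -4.93 in Glis3KO2 testes, against -3.20, -3.04 and -3.26 in WT testes, and fell by 2.51 ± 0.32 (5.71-fold, adjusted p = 0.000957). Itga1, a collagen receptor chain of smooth muscle, had levels of -3.62, -3.06 and -2.49 in Glis3KO2 testes, against -1.55, -1.64 and -1.47 in WT testes. It fell by 1.5 ± 0.28 (adjusted p = 0.00314) on its brightest probe, while its other probes gave -0.96, -0.07 and 0.51. With the mean of all its probes the difference was -0.50 and was not called (adjusted p = 0.057, the highest of 18 alternatives). Itga10, a cartilage collagen receptor chain, was not called (0.52 ± 0.25, adjusted p = 0.111).

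The RGD-binding chains were the integrin class with the most higher calls at 4 weeks: of 7 that passed the filter, 6 were higher and Itga2b, a platelet chain, was not called (-0.12 ± 0.17, limma adjusted p = 0.567). Itgav, the alpha chain of the vitronectin receptors, had levels of -1.19, -1.02 and -1.69 in Glis3KO2 testes, against -3.52, -4.14 and -3.69 in WT testes (2.48 ± 0.25 SE, 5.59-fold, adjusted p = 0.000591). A second Itgav probe was above background on 3 of 3 Glis3KO2 and 0 of 3 WT arrays and was at least 1.53-fold higher. Itgb8, a beta partner of Itgav in the activation of latent TGF-beta, had levels of -1.70, -2.92 and -3.47 in Glis3KO2 testes, against -5.80, -5.95 and -5.96 in WT testes (3.21 ± 0.43, 9.25-fold, adjusted p = 0.00104). The Glis3KO2 arrays spread over more than 1 unit yet none reached the WT range, and a second Itgb8 probe, above background on 3 of 3 Glis3KO2 and 2 of 3 WT arrays, gave 4.26. Another, above background on 3 of 3 Glis3KO2 and 0 of 3 WT arrays, was at least 3.09-fold higher. Itga5, the fibronectin receptor chain, rose by 1.84 ± 0.20 (adjusted p = 0.000682) and Itgb3, a vitronectin receptor chain, by 1.66 ± 0.22 (adjusted p = 0.00104), with 0.50 on a second Itgb3 probe. Itgb5 rose by 0.76 ± 0.20 (adjusted p = 0.0133) and Itga8 by 0.66 ± 0.19 (adjusted p = 0.0182). The Itgb5 call was lost without WT replicate 2 (0.70, adjusted p = 0.052, the highest of 18 alternatives), and that of Itga8 in 5 of 18 alternative settings.

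The alpha chains of the alpha4 and alpha9 receptors, which bind VCAM-1 and fibronectin or tenascin, were both higher at 4 weeks. Itga9 rose by 1.85 ± 0.34 (limma adjusted p = 0.00285) and Itga4 by 0.91 ± 0.26 (adjusted p = 0.0182). The Itga4 call was lost in 4 of 18 alternative settings. Another Itga4 probe was above background on 0 of 3 Glis3KO2 and 2 of 3 WT arrays. It was at least 1.88-fold lower in Glis3KO2 testes, with overlapping groups. The remaining Itga4 probes were above background on 0 of 3 arrays in each 4-week group, so the rise was seen with the brightest probe only.

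**Figure D3:**
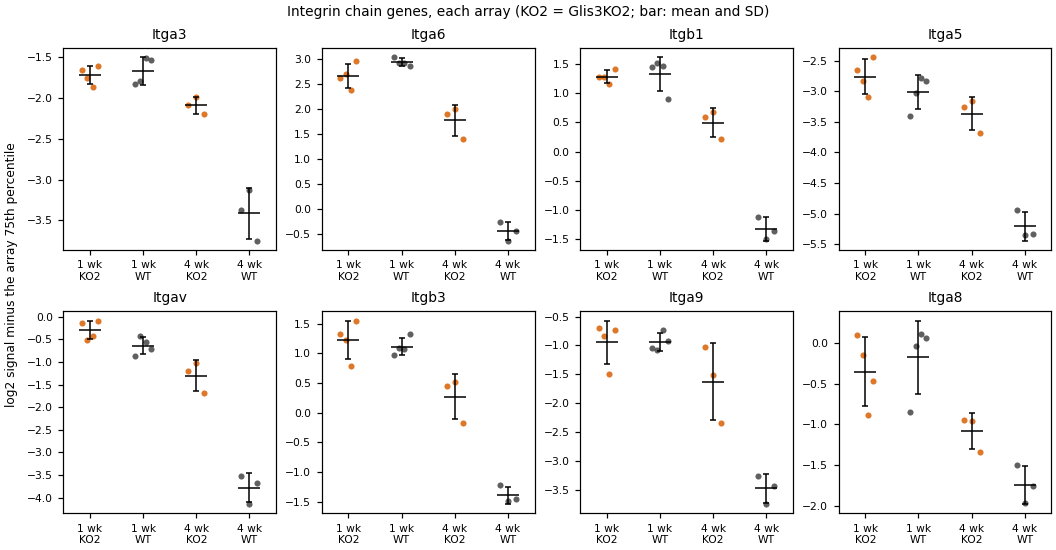
Level of 8 integrin chains on every array, as log2 signal minus the array's 75th percentile, with the mean and SD of each group; panels have their own axes. For each of the 8 genes every 4-week Glis3KO2 array lies above every 4-week WT array, while the 1-week Glis3KO2 and WT points overlap.

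Among the leukocyte chains, 6 passed the filter at 4 weeks, of which 1 was higher and 1 was lower. Itgb2, the beta chain common to most leukocyte integrins, rose by 0.65 ± 0.22 (limma adjusted p = 0.0373), a call that was lost in 9 of 18 alternative settings. Itgal, Itgam and Itgax, alpha chains of lymphocyte and myeloid integrins, and Itgb7, a beta chain of lymphocyte integrins, were not called (between -0.46 and 0.42). Itgae, the alpha chain of the E-cadherin receptor of intraepithelial T cells, had levels of 1.22, 1.5 and 2.85 in 4-week Glis3KO2 testes, against 4.07, 4.06 and 4.20 in WT testes. It fell by 2.25 ± 0.41 (4.76-fold, adjusted p = 0.00277), and no array of one genotype reached the other. In 1-week WT testes the same probe had levels of -1.69, -2.25, -2.05 and -1.47, so that 4-week WT was higher by 5.97 ± 0.19 (62.9-fold, adjusted p = 2.81e-07), the largest rise with age of all members.

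The Itgae rise with age was seen with 1 of its 2 probes. The second probe was above background on 2 of 3 arrays of 4-week WT and 4 of 4 arrays of 1-week WT, and differed by -0.60. At 4 weeks it was above background on 0 of 3 Glis3KO2 and 2 of 3 WT arrays. The Itga1 probes parted in the same comparison, at 1.19 for the brightest and -0.83, -2.33 and -0.17 for the others. The probes of both genes are printed because the sign depends on which is read. They are 60 bases long, on mm7 and across a longer span as above, with no base in capitals.
Itgae brightest probe, chr11:73227177-73228635, plus strand: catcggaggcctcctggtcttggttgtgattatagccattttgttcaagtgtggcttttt
Itgae second probe, chr11:73213308-73214293, plus strand: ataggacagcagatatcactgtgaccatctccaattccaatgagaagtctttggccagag
Itga1 brightest probe, chr13:112138677-112140331, minus strand: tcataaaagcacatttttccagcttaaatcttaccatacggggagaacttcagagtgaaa
Itga1 probe with -0.17, chr13:112202968-112207106, minus strand: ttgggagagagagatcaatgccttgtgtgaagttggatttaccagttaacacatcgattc

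Of the 6 genes that are not integrin chains, 2 rose, 2 fell and 2 were not called at 4 weeks. Itgb3bp, which encodes a centromere protein also known to bind the beta3 chain, had levels of 1.01, 1.27 and 2.59 in Glis3KO2 testes, against 3.84, 3.79 and 3.89 in WT testes, and fell by 2.21 ± 0.40 (4.63-fold, limma adjusted p = 0.00268). Its other probes gave -1.79 and -0.28. Itgb1bp1, which encodes a protein that binds the beta1 cytoplasmic tail, had levels of 2.51, 2.77 and 3.46 in Glis3KO2 testes, against 4.51, 4.64 and 4.64 in WT testes (-1.68 ± 0.25, adjusted p = 0.00148). Its second probe had levels of -2.91, -2.86 and -3.36 in Glis3KO2 testes, against -4.63, -4.85 and -4.87 in WT testes, a difference of 1.74. The 2 probes of Itgb1bp1 thus gave opposite directions with separate groups on each. Itgb1bp2, the melusin gene of striated muscle, was well above background on 3 of 3 Glis3KO2 and 0 of 3 WT arrays and was at least 1.25-fold higher (adjusted p = 0.00153), measured against the background level. With normexp background correction this call was lost, as 1 of 17 alternatives. Itgbl1, which encodes an integrin beta-like secreted protein, rose by 0.88 ± 0.20 (adjusted p = 0.00682). Itgb1bp3 (now Nmrk2, a nicotinamide riboside kinase) and Itgb4bp (now Eif6, a ribosome assembly factor) were not called, at -0.05 and 0.15.

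Several probes of 1 gene were compared wherever a further probe was above background on at least 3 arrays of either group. At 4 weeks 30 such probes were measured, and 25 of them belonged to called members. Of these 25, 22 had the sign of the brightest probe and 3 had the other sign. Itgax, not called at -0.25, had a second probe at 2.88, with levels of -5.06, -1.60 and -2.46 in Glis3KO2 testes, against -6.09, -5.52 and -6.13 in WT testes. The plot of probes by gene shows that the disagreements concern Itga1, Itgb1bp1 and Lama3 more than Itga6 or Lama1.

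**Figure D4:**
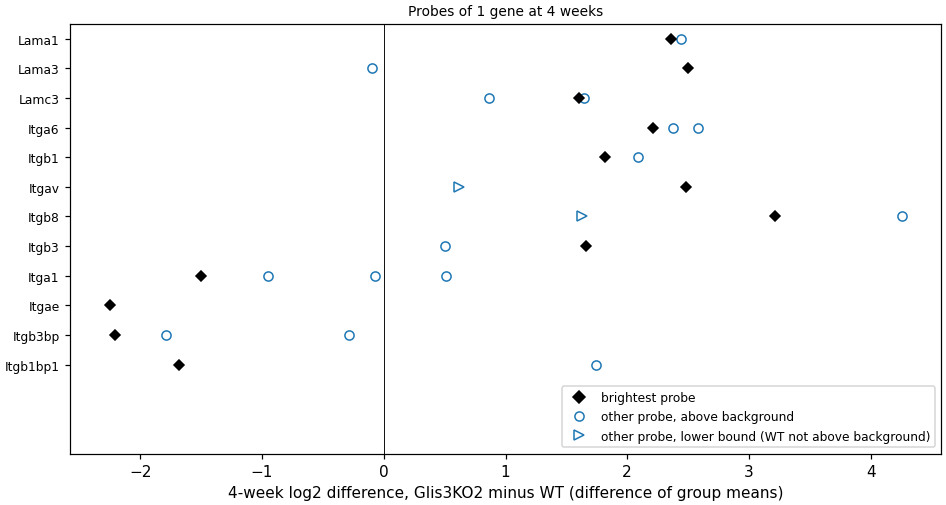
Log2 difference of Glis3KO2 minus WT at 4 weeks for the brightest probe (filled diamond) and the other probes above background (open circle) of 12 genes, with a triangle at the lower bound where no WT array was above background. The open circle of Itgb1bp1 lies at 1.74, opposite its filled diamond at -1.68, and those of Itga6 lie within 1 unit of theirs.

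At 1 week only Itga11, Itgb5, Itgb8 and Itgae were called. Itga11 had levels of 2.59, 2.46, 2.66 and 3.05 in Glis3KO2 testes, against 1.53, 1.97, 2.07 and 2.16 in WT testes (0.76 ± 0.19 SE, 1.69-fold, limma adjusted p = 0.0438). Itgb5, a vitronectin receptor chain, had levels of 4.89, 4.68, 5.09 and 5.28 in Glis3KO2 testes, against 4.05, 4.33, 4.32 and 4.39 in WT testes (0.71 ± 0.16, 1.64-fold, adjusted p = 0.0362). The Glis3KO2 arrays were all above the WT arrays for both genes. Itgb8 had levels of 0.28, 0.15, 0.67 and 0.18 in Glis3KO2 testes, against -0.60, -0.63, -0.39 and -0.68 in WT testes (0.90 ± 0.15, 1.86-fold, adjusted p = 0.0171). Itgae had levels of -3.03, -2.72, -2.61 and -3.34 in Glis3KO2 testes, against -1.69, -2.25, -2.05 and -1.47 in WT testes, and fell by 1.06 ± 0.22 (2.08-fold, adjusted p = 0.0342). Both genes had separate groups on these probes.

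These 1-week calls were not stable. Without WT replicate 1 all 4 calls were lost, with limma adjusted p between 0.0521 (Itgb8) and 0.106 (Itga11). Calls over all genes fell there too, to 77 higher and 290 lower, from 885 and 1392. With slide as a block only Itgb8 stayed called, with a difference of 0.91 and an adjusted p of 0.0446. For Itgb8 the adjusted p ran between 0.00657 and 0.996 over all alternatives, the latter with the mean of all probes. Within slide 1 the adjusted p was 0.233 for Itga11, 0.206 for Itgb5 and 0.202 for Itgae. In that setting 0 of 23399 genes were called, so the loss there says nothing particular to these genes. Since the groups of these 4 genes were separate, their direction within a slide that held both genotypes was fixed in advance, and only the sizes inform. Within slide 1 and slide 2 the differences were 0.83 and 0.39 for Itga11 and 0.81 and 0.32 for Itgb5. They were 0.97 and 0.81 for Itgb8, and -0.95 and -0.86 for Itgae. The second Itgae probe gave 0.21, opposite in sign. The other Itgb8 probes gave -0.06 and 0.17, and a further one, above background on 1 of 4 Glis3KO2 and 3 of 4 WT arrays, gave -1.02.

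The brightest Itgb8 probe holds a stretch that resembles the telomeric repeat CCCTAA, which is printed because the other probes of the gene did not show its 1-week difference. The probe lies at chr12:116974578-116974637 on mm7, minus strand, and the stretch covers bases 22 to 32 counted from its 5′ end, with capitals for the 10 of 11 bases that match the repeat.
Itgb8 stretch: ACCCTAACaCT
The part of this match in the 1-week difference was not tested. At 4 weeks 2 of the Itgb8 probes without it were higher as well, as given above.

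**Figure D5:**
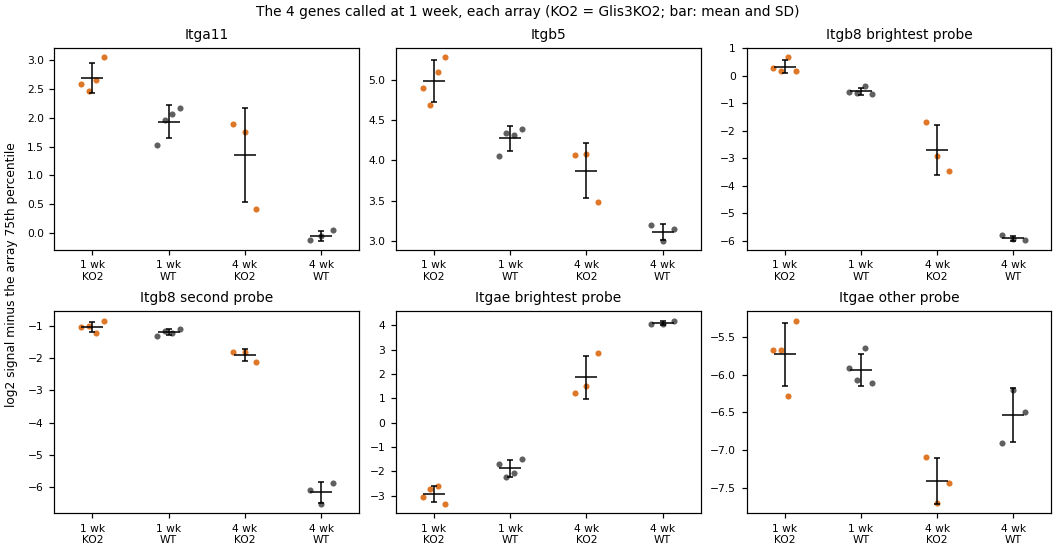
Level of the 4 genes called at 1 week on every array, as log2 signal minus the array's 75th percentile, with the mean and SD of each group, for the brightest probes of all 4 and a further probe of Itgb8 and of Itgae. The brightest Itgb8 probe separates the 1-week genotypes by 0.90 and the second by 0.17, and the Itgae probes separate them by -1.06 and 0.21.

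Over age in WT testes, 42 members passed the filter, of which 7 were higher at 4 weeks, 28 were lower and 7 were not called (83.3% called, against 81.0% of all genes). The higher calls were 16.7% of the members, against 31.3% of all genes, and the lower calls 66.7%, against 49.7%, with a median of -1.31, against -0.51 over all genes. Since the ages lay on separate slides, age and slide cannot be told apart. The genes with the largest rises were Itgae and Lamb3, given above, and Itgb3bp and Itgb1bp1. Itgb3bp had levels of 3.84, 3.79 and 3.89 at 4 weeks, against 0.09, 0.06, -0.04 and 0.27 at 1 week (3.74 ± 0.10 SE, limma adjusted p = 1.11e-07), and its other probes gave 1.43 and -1.28. Itgb1bp1 had levels of 4.51, 4.64 and 4.64 at 4 weeks, against 1.15, 1.07, 1.08 and 1.23 at 1 week (3.46 ± 0.08, adjusted p = 8.61e-08), with -0.82 on its second probe. These genes were thus higher with age on the brightest probe and not on every probe.

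The largest falls with age in WT testes among members above background at both ages were those of Itgb8, Itga4, Lama3 and Lamb1-1. Itgb8 had levels of -5.80, -5.95 and -5.96 at 4 weeks, against -0.60, -0.63, -0.39 and -0.68 at 1 week, and fell by 5.33 ± 0.10 (40.2-fold, limma adjusted p = 3.66e-08). A second Itgb8 probe, above background on 2 of 3 arrays at 4 weeks, gave -4.97. The others were above background on 0 of 3 arrays at 4 weeks and were at least 5.47-fold and 1.06-fold lower. Itga4 had levels of -5.83, -6.06 and -6.03 at 4 weeks, against -1.83, -1.44, -1.55 and -2.15 at 1 week (-4.23 ± 0.18, adjusted p = 9.02e-07). Another 3 Itga4 probes were above background on 4 of 4 arrays at 1 week and 0 of 3 at 4 weeks, and were at least 4.55-fold, 3.32-fold and 1.52-fold lower. The probe with 4.55-fold holds a stretch that resembles the telomeric repeat, and the part of this match was not tested. A further one, above background on 2 of 3 arrays at 4 weeks and 3 of 4 at 1 week, gave 0.78 with overlapping ages. Lama3 had levels of -4.35, -4.75 and -4.51 at 4 weeks, against -0.45, 0.01, -0.24 and -0.76 at 1 week (-4.18 ± 0.20, adjusted p = 1.31e-06), while its second probe gave 0.97. Lamb1-1 had levels of -0.26, -0.97 and -0.44 at 4 weeks, against 2.80, 3.11, 3.01 and 3.01 at 1 week (-3.54 ± 0.18, adjusted p = 1.87e-06). In these 4 genes the ages did not overlap on the brightest probe. Itgb1bp2 was well above background on 0 of 3 arrays at 4 weeks and 4 of 4 at 1 week, and was at least 4.1-fold lower at 4 weeks (adjusted p = 9.92e-06).

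The genotype difference itself differed between the ages for 24 of 42 members, tested in 1 model of all 14 arrays (57.1%, against 51.0% of all genes). It was more positive at 4 weeks for 21 of the 42 members, against 29.3% of all genes, and more negative for 3, which is 7.14%, against 21.6%. All 11 laminin chains were among them, 10 upward and Lamb3 downward (-1.86 ± 0.43 SE, limma adjusted p = 0.00308). For Lama5, not called at either age alone, it was 0.94 ± 0.35 (adjusted p = 0.0383), a call lost in 12 of 24 alternative settings. The calls of Lama2 and Lama4 were lost in 9 and in 4 of the 24, median scaling and the replicate block included. Itga3, Itga6 and Itga7, Itgb1, and Itga5, Itgav, Itgb3 and Itgb8 were also more positive at 4 weeks, as were Itga4, Itga9 and Itgb1bp2. With the mean of all its probes the Itga4 call was lost (limma adjusted p = 0.493). The value of Itgb1bp2 is at least 0.96, since its 4-week WT arrays were not above background. Itgb3bp (-2.90 ± 0.50, adjusted p = 0.000522) and Itgb1bp1 (-2.03 ± 0.28, adjusted p = 0.000154) were more negative. The second Itgb1bp1 probe went the other way, with genotype differences of 0.37 at 1 week and 1.74 at 4 weeks. With the mean of all its probes the Itgb1bp1 call was lost (limma adjusted p = 0.151). For Itgb5 the difference was 0.04 ± 0.26 (adjusted p = 0.902), for Itga11 0.64 ± 0.43 (adjusted p = 0.23) and for Itgae -1.19 ± 0.47 (adjusted p = 0.0517). These 3 genes, called at both ages, were thus not called as different between them. Itgae gained this call in 9 of 24 alternative settings, slide as a block, median scaling and the mean of all probes included. Itgb5 and Itga11 each gained it in 1. With scaling to each array's median the split was 17 upward and 5 downward.

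The members' partners were counted from lists of genes on the same arrays. Over all genes at 4 weeks, 35.1% were higher and 34.1% lower. Of 20 further basement membrane genes at 4 weeks, 13 were higher in Glis3KO2 testes and 2 lower, with the largest differences at Fbln2, a fibulin (2.80 ± 0.33 SE, limma adjusted p = 0.000762), and Col15a1, a basement membrane collagen (-2.79 ± 0.25, adjusted p = 0.000558). Of 20 other matrix ligands of integrins, 11 were higher and 4 lower, led by Ctgf, now Ccn2 (3.19 ± 0.24), and Thbs4, a thrombospondin (-2.19 ± 0.35). Of 15 other laminin receptors, 11 were higher and 3 lower, led by Sdc4, a syndecan (2.76 ± 0.23), and Sgca, a sarcoglycan (-2.49 ± 0.38). Of 27 adaptors of integrin adhesions, 20 were higher and 4 lower, led by Nedd9, a scaffold protein (3.68 ± 0.24), and Tln2, a talin (-2.12 ± 0.29). The median log2 differences of the lists were 0.97, 1.22, 1.13 and 1.33, against 0.03 over all genes. Each of these 8 named genes was called.

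At 1 week the partner genes were counted in the same way, where 3.90% of all genes were higher and 6.14% lower. Of 20 basement membrane genes limma called 0 in either direction, with 4 at an unadjusted p under 0.05. Of 22 ligands 3 were higher and 1 lower, led by Spp1, the osteopontin gene (0.92 ± 0.24 SE, adjusted p = 0.0497), and Thbs4 (-0.65 ± 0.12, adjusted p = 0.0256). Of 15 laminin receptors 2 were higher and 1 lower, led by Sgce (0.64 ± 0.16, adjusted p = 0.045) and Mcam (-1.0 ± 0.17, adjusted p = 0.0197). Of 28 adaptors 1 was higher, Parvg (0.55 ± 0.14, adjusted p = 0.0487), and 1 lower, Enah (-0.78 ± 0.17, adjusted p = 0.0357).

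Markers of the testis cell types were counted at 4 weeks in the same fit, where 35.1% of all genes were higher and 34.1% lower. All 15 spermatid markers were lower in Glis3KO2 testes, with list means per array of 0.95, 0.34 and 1.71 in Glis3KO2 testes, against 3.60, 3.95 and 3.81 in WT testes. The highest of the Glis3KO2 values belonged to replicate 3, the array in which Itgae, Itgb3bp, Itgb1bp1, Lamb3, Itga1 and Itga2 were also highest. Of 16 Sertoli cell markers 15 were higher (list means 1.62 to 2.12, against 0.10 to 0.19 in WT). Of 10 peritubular myoid markers 8 were higher and 1 lower (1.96 to 2.58, against 1.35 to 1.48 in WT). Of 14 markers of macrophages and other leukocytes 11 were higher and 2 lower (-1.35 to -1.12, against -2.02 to -1.68 in WT), and of 13 markers of endothelial cells and platelets 6 and 1 (-2.11 to -1.76, against -2.63 to -2.26 in WT). Of 8 Leydig cell markers 1 was higher and 4 lower (-1.45 to -0.52, against 0.19 to 0.56 in WT), and of 11 germ cell markers 9 were lower (1.63 to 2.28, against 3.02 to 3.11 in WT). Of 12 markers of undifferentiated spermatogonia 4 were higher and 1 lower (-3.84 to -3.63, against -3.92 to -3.68 in WT), and of 7 epididymis markers 1 was higher and 3 lower. In whole-testis RNA, fewer cells of a type and less RNA per cell cannot be told apart, and the part of the cell make-up in the member results was not tested.

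At 1 week 9 of 13 markers of undifferentiated spermatogonia were lower in Glis3KO2 testes, with list means of -4.60 to -3.43, against -2.26 to -2.10 in WT. Over all genes at this age, 3.90% were higher and 6.14% lower. Of 11 germ cell markers 3 were lower (-0.91 to 1.06, against 1.37 to 1.95 in WT), and of 10 spermatid markers that passed the filter 2 were lower. Of 16 Sertoli cell markers 6 were higher (2.51 to 2.69, against 2.14 to 2.30 in WT), and of 14 macrophage and leukocyte markers 6 were higher (-1.25 to -0.93, against -1.87 to -1.58 in WT). Of 10 peritubular myoid markers limma called 0, with 2 at an unadjusted p under 0.05 (3.14 to 3.35, against 2.70 to 3.26 in WT). Of 8 Leydig cell markers 4 were higher (1.23 to 1.42, against 0.54 to 1.13 in WT). Of 13 markers of endothelial cells and platelets 2 were higher, and of 6 epididymis markers 1 was. In 1-week WT testes the spermatid markers Catsper1, Catsper4 and Odf1 were not well above background on any array. The part of these cell types in the 1-week member results was not tested.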

How the data were processed

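Per the labels, total RNA was labelled with Cy3 and hybridised to 1 Agilent array per sample, and read with Agilent Feature Extraction 9.5 (submitters' processing notes). The deposited intensity values are that program's processed signal, which per the file headers is corrected for background and for spatial and multiplicative trends on each array but not normalised across arrays. Here non-uniform and control spots were left out, spots of a probe were averaged, and log2 values were centred on each array's 75th percentile. Gene names are those of the array files, with current names from RefSeq where given. A gene was tested when 3 or more arrays of either group flagged its brightest probe as well above background. Each comparison was fitted with limma 3.58.1 (R 4.3.3) and adjusted over all genes tested, and the code was tested on simulated data. A bound on a fold uses, per array, the lowest signal among probes well above background.

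Per-array values are given for at most 8 called members per direction by size between genotypes and at most 4 between ages, and further probes where they differ in sign or by over 1. Values per array for Lama5, Lamb1-1 over age, Itga11 at 4 weeks, Itgb1 and the second probes of Itgb1bp1 and Itgax were added after seeing them. So were the 1-week differences of the other Itga6 probes. The values of 1 member are not reported here. Sequences are the array's own probes. The members and lists were chosen with earlier results of these data known. Alternatives covered scaling, background correction, filter, probes, model, slide and left-out arrays.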

Additional observations from a re-analysis of the deposited data

Results flagged for a closer look

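In 8 of 86 groups of 4 arrays (each member in each 1-week group), 1 array stood apart from the other 3 by Dixon's gap test, which chance passes in about 1 in 20 groups. Glis3KO2 replicate 3 was the lowest of its group for Lama2 (1.96), Lamb2 (2.28), Lamc3 (-2.46) and Itga9 (-1.50), and the highest for Itgal (-3.81). Glis3KO2 replicate 4, alone on its slide, was the highest for Lama3 (0.0496). In the WT group, replicate 4 was the lowest for Itgb1 (0.90) and replicate 1 the lowest for Itga8 (-0.85). Groups of 3 arrays were not examined this way.

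The genotype difference differed between the ages by the interaction test in 24 members, of which 23 are given here. As the difference at 4 weeks minus that at 1 week, the laminin values were 2.27 for Lama1, 0.98 for Lama2, 2.49 for Lama3, 0.90 for Lama4, 0.94 for Lama5, 1.45 for Lamb1-1, 1.67 for Lamb2, -1.86 for Lamb3, 1.80 for Lamc1 and 1.49 for Lamc3. The integrin chains gave 1.37 for Itga3, 2.49 for Itga6, 0.76 for Itga7, 1.87 for Itgb1, 1.59 for Itga5, 2.13 for Itgav, 1.55 for Itgb3, 2.31 for Itgb8, 1.56 for Itga4 and 1.85 for Itga9. Of the genes that are not chains, Itgb1bp1 gave -2.03 and Itgb3bp -2.90. With the mean of all probes the calls of Itga4 and Itgb1bp1 were lost. Itgb1bp2 gave 2.54, which rests on 4-week WT levels not above background; with those arrays at the background level it is at least 0.96.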

How the results depend on the processing

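At 4 weeks 22 of 31 calls were kept in all 18 alternatives, over age 30 of 35, and in the interaction 17 of 24. At 1 week 0 of 4 were. Of the members not called, some gained a call in the same direction in at least 1 alternative. These were 1 of 38 at 1 week, 4 of 10 at 4 weeks, 3 of 7 over age and 11 of 18 in the interaction. All 31 members called at 4 weeks kept their direction within slide 4 and within slide 5. As their genotype groups did not overlap, this outcome was fixed in advance and is no test of the slides. At 1 week, 3 higher and 1 lower became 1 and 0 without both replicates 4, with no filter and with slide as a block. They became 1 and 1 with quantile normalization, and 0 and 0 within slide 1, where 0 of 23399 genes were called. Slide 2 held 1 Glis3KO2 array, so only its differences are given. With slide as a block the calls over all genes were 64 higher and 438 lower. With the mean of all probes 0 members were lower. Leaving out 1 array gave 0 to 3 higher and 0 to 1 lower at 1 week, with 0 and 0 without WT replicate 1. In the interaction the 3 downward calls became 5 with median scaling and 6 with normexp, and 3 to 5 with 1 array left out, the 5 without 4-week Glis3KO2 replicate 3. The mean of all probes reversed Itgb8 at 1 week (-0.0011), Itgb1bp1 (0.028) and Itgax (1.31) at 4 weeks, and Itga1 over age (-0.53). Median scaling moved the median of all genes at 1 week to 0.19, from -0.07, and the calls over all genes to 2886 higher and 1013 lower, from 885 and 1392; in the interaction it moved the median to -0.09, from 0.24, and the calls to 4750 and 6536, from 6974 and 5136. Same-numbered arrays did not deviate together (correlations -0.34 to 0.16 over genes); with the replicate number as a block, 1 higher and 0 lower were called at 1 week, 23 and 6 at 4 weeks, 7 and 28 over age, and 18 and 3 in the interaction. The causes were not tested. Signals near background limit what can be measured for Itgb6, Itgb2l and Itga2.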
